A study of Homo sapiens with 36 samples.

Results

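The change in RNA levels between 2 and 4 h of dimerizer in wild-type cells was read from 6 of the 36 RNA-seq libraries of the series, 3 taken at 4 h and 3 taken at 2 h. The members are all genes with enough counts for a test, 19043 of the 57665 identifiers listed, and 44932 of those listed had a count in some library. The cells are U2OS, a human osteosarcoma line, carrying a stable construct, Dmr-PERK, in which the eIF2α kinase domain of mouse PERK is joined to a DmrB domain. The ligand AP20187, called the dimerizer, pairs the fusion protein and switches its kinase on. Wild-type wells (genotype WT) had the dimerizer for 2 or 4 h at a single dose, labelled without a unit, and the untreated wild-type wells (NT, 0 h, 3 libraries) carried the same construct. Other wild-type wells had the same labelled dose for 8, 16 or 24 h (3 libraries each) and are used to follow genes after 4 h. ATF4 knockout wells (genotype ATF4KO, also with Dmr-PERK, 3 libraries at 2 h and 3 at 4 h) are used for one comparison. The labels list no untreated wells at 2 or 4 h and no cells without Dmr-PERK. They do not say whether the line is a single clone or whether replicate wells came from different cultures. The p-values therefore measure the spread between these libraries, which may be technical.

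The integrated stress response starts when one of several kinases phosphorylates the translation factor eIF2α. Most translation slows, while a few messages with upstream open reading frames, above all that of the transcription factor ATF4, are translated better. ATF4 binds DNA as a pair with a C/EBP or another leucine zipper protein and raises genes for amino acid synthesis and uptake, for tRNA charging and for feedback on the response itself. Immediate early genes are transcribed within minutes of a stimulus without new protein, and their messages are usually short-lived.

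Depth ran from 10828034 to 16015942 counts at 2 h and from 8751971 to 10334753 counts at 4 h, so the libraries at 4 h were shallower on the whole. Levels below are CPM, each library's counts as a share of its total, after scaling for library composition with TMM factors. The lineage markers fitted U2OS only in part: VIM lay between 2451 and 2737 CPM and COL1A1 between 1042 and 1221 CPM over the 6 libraries, whereas TWIST1 was at 0 in the libraries at 2 h and COL1A2 stayed below 1.05 CPM. Of the other lineage markers, FN1 lay between 1067.75 and 1426.7 CPM, SPARC between 1075.9 and 1109.9 CPM and RUNX2 between 42.3 and 55.9 CPM. Of the 7 lineage markers, 1 was higher and 3 were lower at 4 h. The summed markers of other cell types were low apart from the neuronal ones. Among the neuronal markers TUBB3 alone lay between 72.4 and 79.8 CPM. The 6 epithelial markers came to 25.99 to 29.67 CPM at 2 h and 18.33 to 21.91 CPM at 4 h, and the 5 endothelial ones to 6.236 to 7.913 and 3.766 to 5.347 CPM. The 5 leukocyte markers, with CD3E at 0, came to 1.81 to 3.282 and 2.192 to 2.665 CPM. The 5 muscle markers, with MYOD1 at 0, came to 3.724 to 5.081 and 4.06 to 5.87 CPM, and the 5 neuronal ones to at most 103.7 and 98.0 CPM. Of these, 1 epithelial marker was higher and 2 were lower at 4 h, 1 endothelial marker was lower, and 1 neuronal marker was higher and 1 lower. Their part in the results was not tested. ATF4 itself, the gene targeted in the knockout line, lay at 368, 372 and 376 CPM at 2 h and 482, 483 and 497 CPM at 4 h in the knockout, so its message is still counted in those cells and the gene-level count does not check the label.

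The DNA word that ATF4 pairs read with C/EBP proteins, the C/EBP-ATF response element TGATGNAA, was searched on both strands in the RefSeq promoter windows, which run from 250 bases before to 50 after a gene's start (GRCh38.p14). Of 66 members of the stress, amino acid synthesis, amino acid transporter and tRNA synthetase lists that were higher at 4 h than at 2 h, as were 19.4% of all tested genes, 37 had a window and 12 of these (32.4%) held the element, against 339 of the 11557 tested genes with a window (2.93%). Among the 15 members with a window that were not higher, 1 held it. The lists were chosen with results of these data known and contain many recognised ATF4 targets, so the share describes them and tests nothing. Each stretch below shows 30 bases, 5′ to 3′ along the strand on which the element reads TGATGNAA, with the element in capitals. They are shown because these 12 genes rose in the step and hold the element. In 8 of them, all but CEBPG, CHAC1, FGF21 and SLC7A1, the step was significantly smaller in ATF4 knockout cells, a call made for 1.86% of all genes. FGF21 had no count in the knockout at 2 or 4 h, and the knockout counts of CHAC1 were at or near 0. Whether the step of these genes differed could therefore not be judged.
CEBPG (chr19:33374060-33374089): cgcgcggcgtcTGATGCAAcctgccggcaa
JDP2 (chr14:75427995-75428024): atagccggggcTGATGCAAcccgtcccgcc
CHAC1 (chr15:40953251-40953280): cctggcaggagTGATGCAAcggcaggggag
FGF21 (chr19:48755459-48755488): ctcctcctcccTGATGCAAtcctggtgttt
ASNS (chr7:97872458-97872487): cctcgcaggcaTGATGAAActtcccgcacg
MTHFD1L (chr6:150866346-150866375): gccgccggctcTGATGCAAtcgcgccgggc
GOT1 (chr10:99430804-99430833): gctgccgagaaTGATGCAAccaatgcaatt
BCAT1 (chr12:24949131-24949160): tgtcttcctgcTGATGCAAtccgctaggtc
SLC7A1 (chr13:29595663-29595692): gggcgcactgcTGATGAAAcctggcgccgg
SLC1A4 (chr2:64989381-64989410): ccggctggagaTGATGCAAacgggagccgc
SLC1A5 (chr19:46784893-46784922): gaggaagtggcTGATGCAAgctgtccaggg
SLC38A1 (chr12:46266502-46266531): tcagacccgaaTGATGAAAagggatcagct

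By distance, the element began 42 bases before the start of CEBPG, 16 before that of JDP2, 68 before that of ASNS, 129 before that of MTHFD1L, 48 before that of BCAT1, 97 before that of SLC1A5 and 4 before that of SLC38A1, all on the strand of the gene. SLC7A1 had it 7 bases after its start. In CHAC1, FGF21, GOT1 and SLC1A4 it lay on the opposite strand, 209, 54, 198 and 7 bases before the start. The word TGATGCAA stood in 9 of the 12 stretches and TGATGAAA in ASNS, SLC7A1 and SLC38A1.

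Of the genes with the largest rises in the step or in each rising course, 3 held the element, and their windows are given whole, along the strand of the gene, to show the sequence around it. In FGF21 the capitals therefore give the reverse complement, TTGCATCA. BCL2A1, an anti-apoptotic BCL2 relative, has the window chr15:79971147-79971446 on the minus strand, with the element 63 bases before the start. FCRLA, an Fc receptor-like protein, has chr1:161706979-161707278 on the plus strand, with the element 115 bases before the start, and FGF21, a secreted stress hormone, has chr19:48755274-48755573 on the plus strand, with the element 54 bases before the start. None of the 3 windows held any of the other words searched (the cAMP response element TGACGTCA, the NF-κB word GGANTTTCC, the AP-1 word TGANTCA, the E-box CACGTG and the CArG box). TRIB3, with the largest rise among the stress genes, had no element in its windows.
BCL2A1: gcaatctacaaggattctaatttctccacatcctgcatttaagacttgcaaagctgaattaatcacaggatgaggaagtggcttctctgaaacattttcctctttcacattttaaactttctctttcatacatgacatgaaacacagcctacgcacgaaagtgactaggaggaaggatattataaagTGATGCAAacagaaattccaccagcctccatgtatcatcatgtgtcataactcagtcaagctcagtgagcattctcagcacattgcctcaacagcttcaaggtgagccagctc
FCRLA: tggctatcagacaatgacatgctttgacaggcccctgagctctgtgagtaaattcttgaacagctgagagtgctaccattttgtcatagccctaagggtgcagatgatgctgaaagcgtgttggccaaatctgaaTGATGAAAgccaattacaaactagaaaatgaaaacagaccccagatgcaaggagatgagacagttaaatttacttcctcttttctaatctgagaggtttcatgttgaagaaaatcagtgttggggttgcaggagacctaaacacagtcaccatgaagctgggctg
FGF21: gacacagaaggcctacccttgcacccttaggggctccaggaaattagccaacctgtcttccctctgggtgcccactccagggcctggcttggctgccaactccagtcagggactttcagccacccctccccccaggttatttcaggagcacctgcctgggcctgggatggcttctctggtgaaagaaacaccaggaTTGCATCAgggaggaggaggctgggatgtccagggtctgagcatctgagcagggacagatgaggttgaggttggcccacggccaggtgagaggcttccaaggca

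Between 2 and 4 h, 3698 genes rose and 3286 fell in wild-type cells at an adjusted p under 0.05 (edgeR's quasi-likelihood test, 3 against 3 libraries, Benjamini-Hochberg over all 19043 genes). These are 19.4% and 17.3% of the genes tested, the background for every count of members below. Changes of at least 2-fold were far fewer, 300 genes up (1.58%) and 326 down (1.71%), and the median step over all genes was −0.01 on the log2 scale. Every step given below is a log2 fold change of 4 h over 2 h. The standard error (SE), where given, was derived from the test, as the absolute fold change on the log2 scale divided by the square root of the F statistic. The SE of a difference of steps was derived in the same way. The 3 libraries at 4 h lay wholly above the 3 at 2 h for 23.2% of genes and wholly below them for 22.1%.

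Set against the change from 0 to 2 h, in which 2328 genes had risen (12.2%) and 1984 had fallen (10.4%), the step split into 6 courses. Newly raised genes, not called at 2 h but higher at 4 h than at both earlier times, numbered 2143. A rise that had begun by 2 h continued in 678 genes and turned back in 691. Newly lowered genes numbered 1739, a fall continued in 449 genes and turned back in 509. Of the genes raised at 2 h, 29.1% rose further and 29.7% fell, while 41.2% did not pass the test in the step. Of the genes lowered at 2 h, 22.6% fell further and 25.7% rose. The contrasts share the 2 h libraries, so a chance deviation of those libraries enters both sides of a course, and these counts are descriptions. Without wild-type replicate 3 at 2 h the continued falls numbered 298, and without replicate 2 at 2 h the reversed falls numbered 305. Of the 691 reversed rises, 106 were still above the untreated level at 4 h, 181 were below it and 404 did not differ from it by the test. Of the 509 reversed falls, 175 were above it, 36 below and 298 not called.

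**Figure D1:**
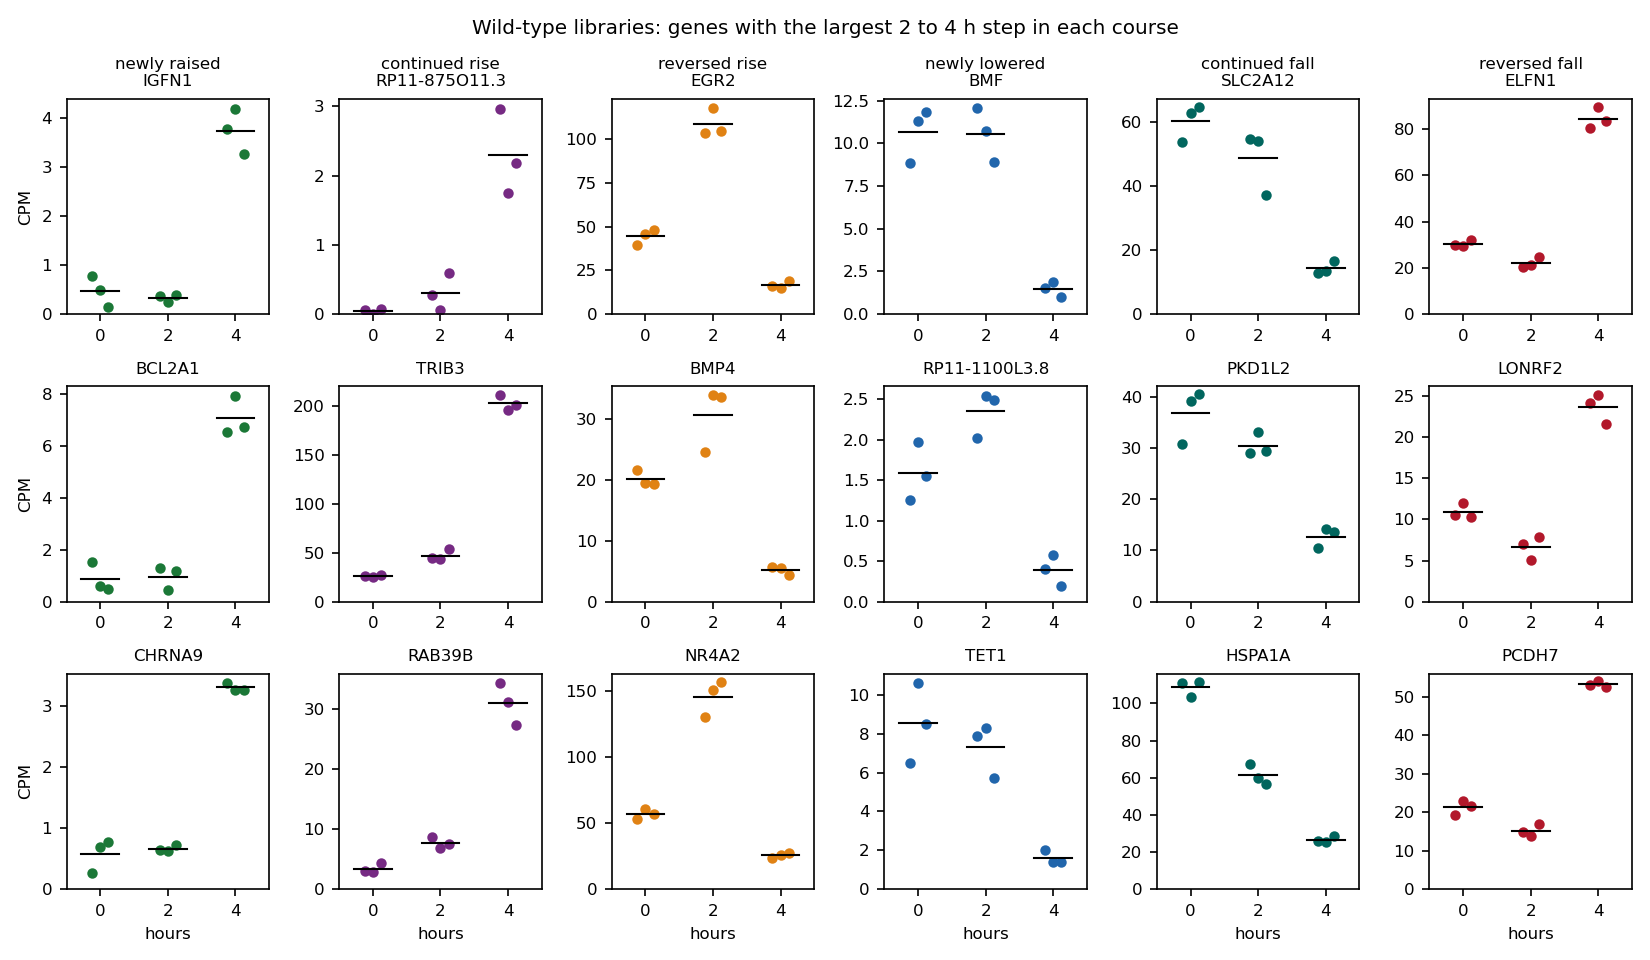
Level in CPM (vertical axis) in each wild-type library at 0, 2 and 4 h (horizontal axis) for the 3 genes with the largest step in each of the 6 courses, with 3 points per time and a black line at their mean. In all 18 genes the points at 4 h lie clear of those at 2 h, as the rule for choosing them required.

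The newly raised genes with the largest steps started from low levels. IGFN1, a muscle protein with immunoglobulin and fibronectin domains (chr1:201190825-201228952, plus strand), was at 0.790, 0.493 and 0.140 CPM untreated, 0.368, 0.248 and 0.394 CPM at 2 h and 3.77, 4.19 and 3.26 CPM at 4 h. Its step was 3.45 (SE 0.34, adjusted p = 2.6e-11). BCL2A1 (chr15:79960889-79971446, minus strand) was at 1.52, 0.591 and 0.492 CPM untreated, 1.29, 0.434 and 1.18 CPM at 2 h and 6.53, 7.92 and 6.72 CPM at 4 h, a step of 2.91 (SE 0.26, adjusted p = 2.42e-12). By the definition of the course, neither changed by the test from 0 to 2 h. Every library at 4 h was several-fold above all earlier ones. CHRNA9, a nicotinic receptor subunit, was at 0.643, 0.620 and 0.722 CPM at 2 h and 3.37, 3.26 and 3.26 CPM at 4 h (step 2.30, SE 0.28, adjusted p = 4.91e-09). SLC16A9, a monocarboxylate transporter family member, was at 1.19, 0.930 and 0.853 CPM at 2 h and 4.18, 5.36 and 4.84 CPM at 4 h (step 2.28, SE 0.25, adjusted p = 3.9e-10). G0S2, an inhibitor of fat breakdown, was at 1.19, 1.05 and 1.51 CPM at 2 h and 5.81, 6.4 and 5.53 CPM at 4 h (step 2.22, SE 0.21, adjusted p = 8.75e-12). ICAM1, the adhesion molecule bound by leukocyte integrins, was at 1.38, 0.806 and 1.58 CPM at 2 h and 4.39, 4.19 and 5.14 CPM at 4 h (step 1.88, SE 0.27, adjusted p = 3.29e-07). In each of the 4 the libraries of the 2 times did not overlap, as the rule for choosing them required. C10orf67 and FCRLA complete the 8, with steps of 2.10 (SE 0.30, adjusted p = 2.29e-07) and 2.03 (SE 0.35, adjusted p = 7.97e-06); FCRLA ranged from 1.63 to 3.73 CPM at 4 h.

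TRIB3 led the continued rises that were well expressed. This pseudokinase, a feedback regulator of ATF4 and CHOP (chr20:362835-397559, plus strand), was at 26.7, 25.7 and 27.4 CPM untreated, 44.6, 43.3 and 53.5 CPM at 2 h and 211, 196 and 201 CPM at 4 h. It had risen by 0.82 on the log2 scale at 2 h and rose by a further 2.10 (SE 0.05, adjusted p = 6.17e-30) in the step, with no overlap between any of the 3 times. RAB39B, a small GTPase of vesicle traffic (chrX:155258241-155264589, minus strand), followed the same course at 2.96, 2.86 and 4.28 CPM untreated, 8.64, 6.82 and 7.48 CPM at 2 h and 34.3, 31.1 and 27.4 CPM at 4 h (step 2.03, SE 0.10, adjusted p = 2.11e-20). FGF21 was at 0.132, 0.0985 and 0.0702 CPM untreated, 0.368, 0.806 and 0.984 CPM at 2 h and 2.96, 3.03 and 2.08 CPM at 4 h (step 1.82, SE 0.30, adjusted p = 1.52e-05). STC2, the secreted glycoprotein stanniocalcin 2, was at 0.593, 0.493 and 0.351 CPM untreated, 0.460, 1.55 and 1.38 CPM at 2 h and 4.18, 2.79 and 3.95 CPM at 4 h (step 1.61, SE 0.28, adjusted p = 1.38e-05), and 1 of its libraries at 2 h lay within the untreated range. ROBO4, a guidance receptor, was at 2.3, 2.48 and 3.35 CPM at 2 h and 7.14, 8.85 and 8.89 CPM at 4 h (step 1.59, SE 0.18, adjusted p = 1.41e-09). C8orf4 was at 5.24, 4.03 and 2.76 CPM at 2 h and 14.9, 10.5 and 11.3 CPM at 4 h (step 1.64, SE 0.20, adjusted p = 9.56e-09). The pseudogene ROCK1P1 was at 4.96, 5.64 and 7.81 CPM at 2 h and 16.8, 20.3 and 18 CPM at 4 h (step 1.55, SE 0.13, adjusted p = 1.87e-13); reads of a pseudogene may be split with its parent ROCK1. For the antisense RNA RP11-875O11.3, with 2 counts over the untreated libraries and 13 over those at 2 h, the early ratio of 6.09 had an exact 95% interval of 1.38 to 55.6, and its step was 2.86 (SE 0.42, adjusted p = 4.87e-07), or 3.86 without replicate 3 at 2 h.

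Among 29 stress response factors and effectors, 22 rose in the step and 5 fell, with a median of 0.67. The course was a continued rise in 20, newly raised in 2 and a reversed rise in 4. ATF4, the transcription factor at the centre of the response (chr22:39519695-39522685, plus strand), was at 310.1, 323 and 322 CPM untreated, 469, 459 and 507 CPM at 2 h and 684, 668 and 694 CPM at 4 h. Its early rise of 0.59 was followed by a step of 0.51 (SE 0.03, adjusted p = 2.07e-17), so each of the 2 h intervals added a similar amount. Some other leucine zipper genes rose with it: CEBPG by 0.90, JDP2 by 0.75, CEBPB by 0.67 and the repressor NFIL3 by 0.90. Others did not, since ATF3, FOS and JUN fell and DDIT3 rose little, as given below. Effectors that rose most beside TRIB3, FGF21 and STC2 were INHBE (1.17), a secreted inhibin subunit, SESN2 (1.12), a leucine sensor that restrains mTORC1, and ADM2 (1.04), a secreted peptide. SESN2 was at 102, 92 and 123 CPM at 2 h and 224, 236 and 232 CPM at 4 h (chr1:28259527-28282491, plus strand), without overlap, a step of 1.12 (SE 0.05, adjusted p = 1.81e-20). DDIT4, another brake on mTORC1, was at 296, 272 and 362 CPM at 2 h and 538, 511 and 502 CPM at 4 h (step 0.74, SE 0.05, adjusted p = 4.1e-16). VLDLR, a lipoprotein receptor, was at 29.1, 26.2 and 24.8 CPM at 2 h and 45.4, 48.2 and 45.8 CPM at 4 h (step 0.81, SE 0.06, adjusted p = 1.13e-13). XPOT, the tRNA exporter, was at 148, 144 and 158 CPM at 2 h and 241, 239 and 233 CPM at 4 h (step 0.66, SE 0.03, adjusted p = 1.8e-19). The death receptor TNFRSF10B was at 156, 143 and 142 CPM at 2 h and 239, 228 and 235 CPM at 4 h (step 0.68, SE 0.04, adjusted p = 9.87e-19).

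Several stress genes that had risen early came down or barely moved. ATF3, a stress-induced repressor (chr1:212565334-212620777, plus strand), was at 119, 138 and 129 CPM untreated, 474, 529 and 456 CPM at 2 h and 239.9, 277 and 301 CPM at 4 h, and its step was −0.84 (SE 0.08, adjusted p = 5.54e-11). All 3 libraries at 4 h lay below those at 2 h and above the untreated ones. GDF15, a secreted stress cytokine, was at 29, 23.2 and 24.9 CPM untreated, 47.5, 35.8 and 42.4 CPM at 2 h and 28.7, 29.1 and 27.5 CPM at 4 h (step −0.55, SE 0.09, adjusted p = 4.39e-06). At 4 h it did not differ from the untreated level by the test (adjusted p = 0.3). PPP1R15A (GADD34), which brings a phosphatase to eIF2α, was at 153, 162 and 155 CPM at 2 h and 119.8, 143 and 143 CPM at 4 h, a step of −0.22 (SE 0.05, adjusted p = 0.00089) that became −0.14 without replicate 1 at 4 h. BBC3, the BH3-only protein PUMA, stepped by −0.34, and KLHL24, a ubiquitin ligase adaptor that had not risen by the test, by −1.37. DDIT3 (CHOP), the pro-apoptotic C/EBP relative, was at 30.4, 32.1 and 31 CPM untreated, 80.3, 84.2 and 91.2 CPM at 2 h and 96.9, 92.1 and 96.4 CPM at 4 h. Most of its change was over by 2 h: the step was 0.15 (SE 0.06, adjusted p = 0.039), and its adjusted p exceeded 0.05 when replicate 1 or 2 at 2 h or replicate 1 or 3 at 4 h was left out. CHAC1, a glutathione-degrading enzyme, had likewise done most of its rise by 2 h, at 8.5, 8.96 and 7.3 CPM untreated, 49.5, 44.4 and 58.3 CPM at 2 h and 62.6, 63.9 and 61.7 CPM at 4 h (step 0.31, SE 0.07, adjusted p = 0.001). EIF2AK3, the cell's own PERK gene, was at 676, 671 and 701 CPM at 2 h and 746, 788 and 772 CPM at 4 h (step 0.17, SE 0.03, adjusted p = 4.05e-06); whether reads of the construct's PERK kinase domain were counted with it was not tested. RGS2 and NDRG1 did not pass the test (adjusted p = 0.88 and 0.15).

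**Figure D2:**
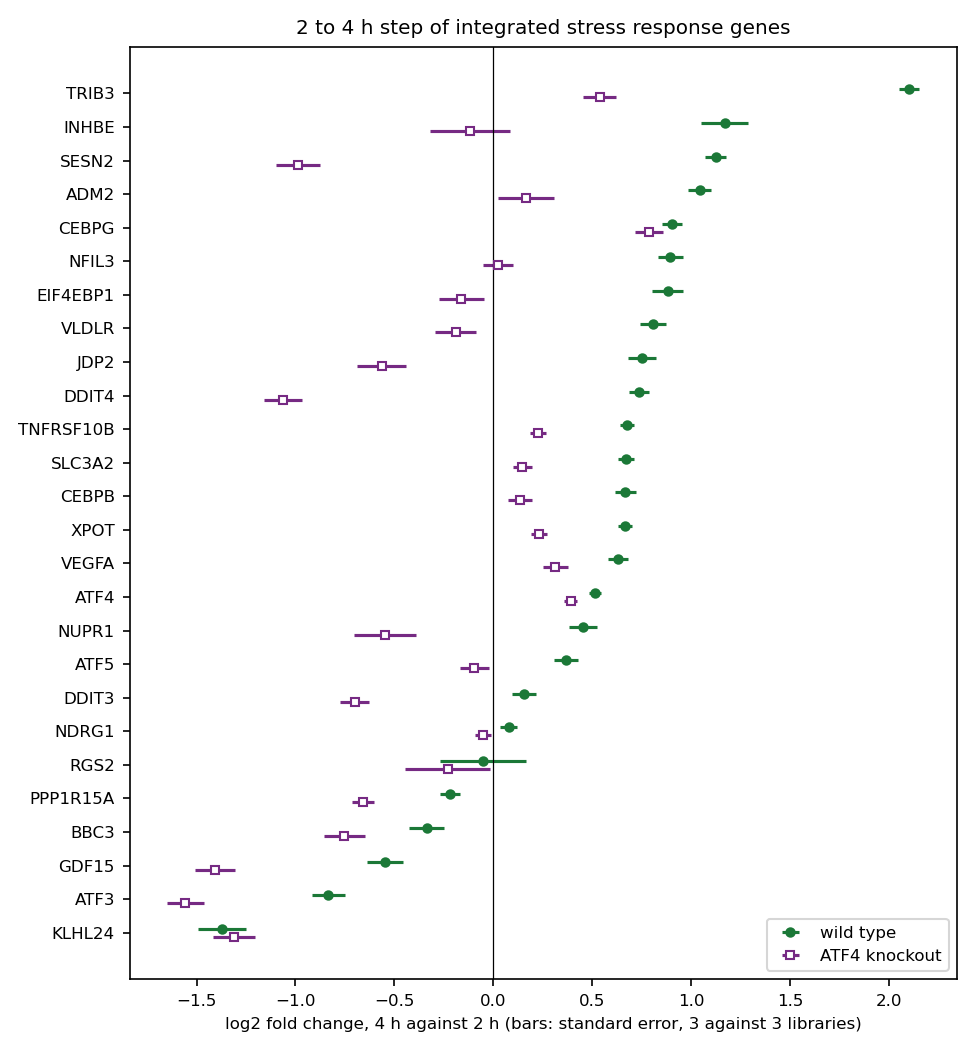
Log2 fold change of 4 h over 2 h (horizontal axis, bars show the standard error) for 26 stress response genes in wild-type (filled circles) and ATF4 knockout cells (open squares). TRIB3 stands at 2.10 against 0.54, SESN2 at 1.12 against −0.99, and KLHL24 below −1 in both; STC2, FGF21 and CHAC1 are left out because their knockout counts are at or near 0.

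Enzymes that make amino acids and one-carbon units rose almost as a set, with 17 of 20 higher, 2 lower and a median step of 0.67. Of these, 11 continued an early rise and 5 were newly raised. The largest steps were in ALDH1L2 (1.43), a mitochondrial folate enzyme, CTH (1.38), which makes cysteine from cystathionine, and GPT2 (1.28), which makes alanine. CTH was at 15.4, 18.7 and 19.2 CPM at 2 h and 47, 47.5 and 45.8 CPM at 4 h (step 1.38, SE 0.06, adjusted p = 6.37e-21). GPT2 was at 57.8, 54.1 and 66.3 CPM at 2 h and 149.8, 143 and 139.9 CPM at 4 h (step 1.28, SE 0.05, adjusted p = 3.12e-23). The serine pathway rose along its length, PHGDH by 0.45, PSAT1 by 1.10 and PSPH by 1.23, as did the mitochondrial folate enzymes SHMT2 (0.76) and MTHFD2. MTHFD2 was at 199, 186 and 208 CPM at 2 h and 403, 401 and 397 CPM at 4 h (step 1.02, SE 0.04, adjusted p = 4.61e-23). PSAT1 was at 37.7, 39.4 and 45.7 CPM at 2 h and 88.5, 91.1 and 86.1 CPM at 4 h (step 1.10, SE 0.05, adjusted p = 5.71e-21). ASNS, asparagine synthetase (chr7:97852118-97872542, minus strand), was at 63.3, 59.7 and 61.2 CPM untreated, 92.9, 94.5 and 111 CPM at 2 h and 188, 191 and 177 CPM at 4 h. Its step was 0.89 (SE 0.04, adjusted p = 2.23e-20), and no library at 4 h overlapped the earlier times. GLUL, glutamine synthetase, and OAT, ornithine aminotransferase, went the other way, with steps of −0.51 (SE 0.14, adjusted p = 0.0039) and −0.17 (SE 0.04, adjusted p = 0.000264). The step of GLUL was −0.046 and −0.049 on the TPM scales with pseudocounts of 1 and 0.1, and −0.41 (adjusted p = 0.055) with all libraries thinned to equal totals; no call passed under these settings.

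Among 16 amino acid transporters 9 rose and 2 fell (median 0.46), and 8 of the 9 continued an early rise; 1 fell without replicate 1 at 2 h or replicate 1 or 3 at 4 h. SLC7A11, the cystine carrier (chr4:138164097-138242349, minus strand), was at 36.3, 36 and 32.7 CPM untreated, 57.4, 62.3 and 66.3 CPM at 2 h and 162, 153 and 167 CPM at 4 h, a step of 1.37 (SE 0.05, adjusted p = 1.88e-25). SLC1A5, which carries glutamine, was at 145, 128 and 153 CPM at 2 h and 299, 289 and 287 CPM at 4 h (step 1.04, SE 0.04, adjusted p = 3.07e-23). SLC7A5, the leucine carrier, was at 418, 377 and 477 CPM at 2 h and 813, 769 and 782 CPM at 4 h (step 0.89, SE 0.04, adjusted p = 2.5e-21), and its partner chain SLC3A2 stepped by 0.67. SLC7A1, for arginine and lysine, was at 224, 222 and 244 CPM at 2 h and 411, 417 and 411 CPM at 4 h (step 0.84, SE 0.04, adjusted p = 3.94e-21). SLC38A2 and SLC36A1 did not pass (adjusted p = 0.25 and 0.06), and SLC38A10 was lower, with a step of −0.21 (SE 0.06, adjusted p = 0.0025). SLC1A1 was lower too, with a step of −0.93 (SE 0.32, adjusted p = 0.021), a call lost without replicate 1 or 2 at 2 h or replicate 1 or 3 at 4 h.

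The cytosolic tRNA synthetases, which charge tRNAs with amino acids, were higher in 19 of 20 cases, with a median step of 0.52. In contrast to the transporters, more of them were newly raised (11) than continued (8), and their median change from 0 to 2 h had been 0.03. WARS, for tryptophan, was at 31, 32.2 and 29.3 CPM untreated, 30.3, 27.8 and 33.3 CPM at 2 h and 75.3, 73 and 63.5 CPM at 4 h, with no change by the test to 2 h and then up by 1.21 (SE 0.06, adjusted p = 4.75e-20). SARS was at 188, 177 and 196 CPM at 2 h and 372, 356 and 342 CPM at 4 h (step 0.93, SE 0.03, adjusted p = 6.94e-25). GARS was at 303, 299.8 and 330.0 CPM at 2 h and 537, 530.4 and 536 CPM at 4 h (step 0.78, SE 0.03, adjusted p = 5.45e-23). IARS was at 239.9, 245 and 256 CPM at 2 h and 362, 364 and 375 CPM at 4 h (step 0.57, SE 0.03, adjusted p = 9.92e-20). The smallest rises were in RARS (0.11), DARS (0.13) and KARS (0.15). QARS, for glutamine, was lower, with a step of −0.11 (SE 0.04, adjusted p = 0.013), a call lost without replicate 2 at 2 h.

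The immediate early genes made up the clearest reversal. Of 31 tested, 27 had risen by 2 h, 25 fell in the step and 1 rose, with a median step of −0.59, and 23 had the course of a reversed rise; 2 rose when replicate 1 at 2 h was left out, and likewise for replicate 1 or 3 of the untreated libraries, knockout replicate 1 at 2 h or knockout replicate 3 at 4 h. EGR2, a zinc finger transcription factor, was at 39.7, 45.9 and 48.3 CPM untreated, 103, 118 and 104 CPM at 2 h and 16.3, 14.8 and 18.7 CPM at 4 h, and its step was −2.70 (SE 0.11, adjusted p = 6.31e-23). NR4A2, an orphan nuclear receptor (chr2:156324432-156342348, minus strand), was at 52.9, 60.7 and 57.2 CPM untreated, 130.4, 151 and 157 CPM at 2 h and 23.9, 25.7 and 27 CPM at 4 h (step −2.52, SE 0.08, adjusted p = 1.88e-25). EGR1 (chr5:138465490-138469315, plus strand) was at 488, 532 and 531 CPM untreated, 1497, 1772 and 1846 CPM at 2 h and 385, 472 and 469.8 CPM at 4 h (step −1.95, SE 0.08, adjusted p = 2.64e-23). In EGR2 and NR4A2 all 3 libraries at 4 h were below the untreated libraries too, and in EGR1 all 3 lay below the lowest untreated library, by a small margin. FOSB was at 10.01, 10.7 and 11.7 CPM untreated, 23.6, 28.6 and 23.6 CPM at 2 h and 3.67, 6.29 and 6.82 CPM at 4 h (step −2.18, SE 0.15, adjusted p = 1.17e-15). BTG2, an antiproliferative gene, was at 198, 208 and 222 CPM untreated, 294, 298 and 260.1 CPM at 2 h and 80.7, 93.5 and 88.7 CPM at 4 h (step −1.70, SE 0.06, adjusted p = 6.94e-25). FOS stepped by −1.68 and JUN by −1.26, which form the AP-1 factor together, ZFP36, a destabiliser of AU-rich messages, by −1.52, and NR4A1 by −1.37. The secreted matrix protein CTGF was at 3234, 3543 and 3440.0 CPM at 2 h and 1042, 1201 and 1299 CPM at 4 h (step −1.53, SE 0.05, adjusted p = 4.38e-25). CYR61, its relative, was at 2070.2, 2222 and 2122 CPM at 2 h and 1084, 1187 and 1142 CPM at 4 h (step −0.91, SE 0.04, adjusted p = 1.5e-23).

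Not every early gene turned back. FOSL2 was at 854, 766 and 819 CPM at 2 h and 939.5, 928 and 951 CPM at 4 h and rose by 0.21 (SE 0.03, adjusted p = 9.49e-07). MYC, EGR4 and KLF2, named after their values were seen, were 1.52, 1.89 and 0.76 above the untreated level at 2 h on the log2 scale and 1.49, 1.80 and 0.72 at 4 h; their steps did not pass (adjusted p = 0.56, 0.6 and 0.71). Among 12 MAP kinase phosphatases and Sprouty-type inhibitors, which damp the signal to these genes, 8 fell and 4 rose. DUSP1 was at 619.8, 726 and 819.7 CPM at 2 h and 350.2, 392 and 377 CPM at 4 h (step −0.96, SE 0.06, adjusted p = 2.01e-16). DUSP2 was at 513, 513 and 575 CPM at 2 h and 225, 272 and 262 CPM at 4 h (step −1.08, SE 0.08, adjusted p = 1.34e-14). DUSP5 was at 118, 109 and 118 CPM at 2 h and 68.9, 71.1 and 70.7 CPM at 4 h (step −0.71, SE 0.05, adjusted p = 4.35e-15). DUSP8 was at 60.02, 67.5 and 65.2 CPM at 2 h and 34.4, 37 and 36.6 CPM at 4 h (step −0.84, SE 0.06, adjusted p = 1.33e-14). ERRFI1, an inhibitor of the EGF receptor, rose instead, from 519, 480.4 and 529.5 CPM at 2 h to 845, 826 and 784 CPM at 4 h (step 0.68, SE 0.04, adjusted p = 3.29e-17), as did SPRED3 (0.39) and DUSP7 (0.33).

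**Figure D3:**
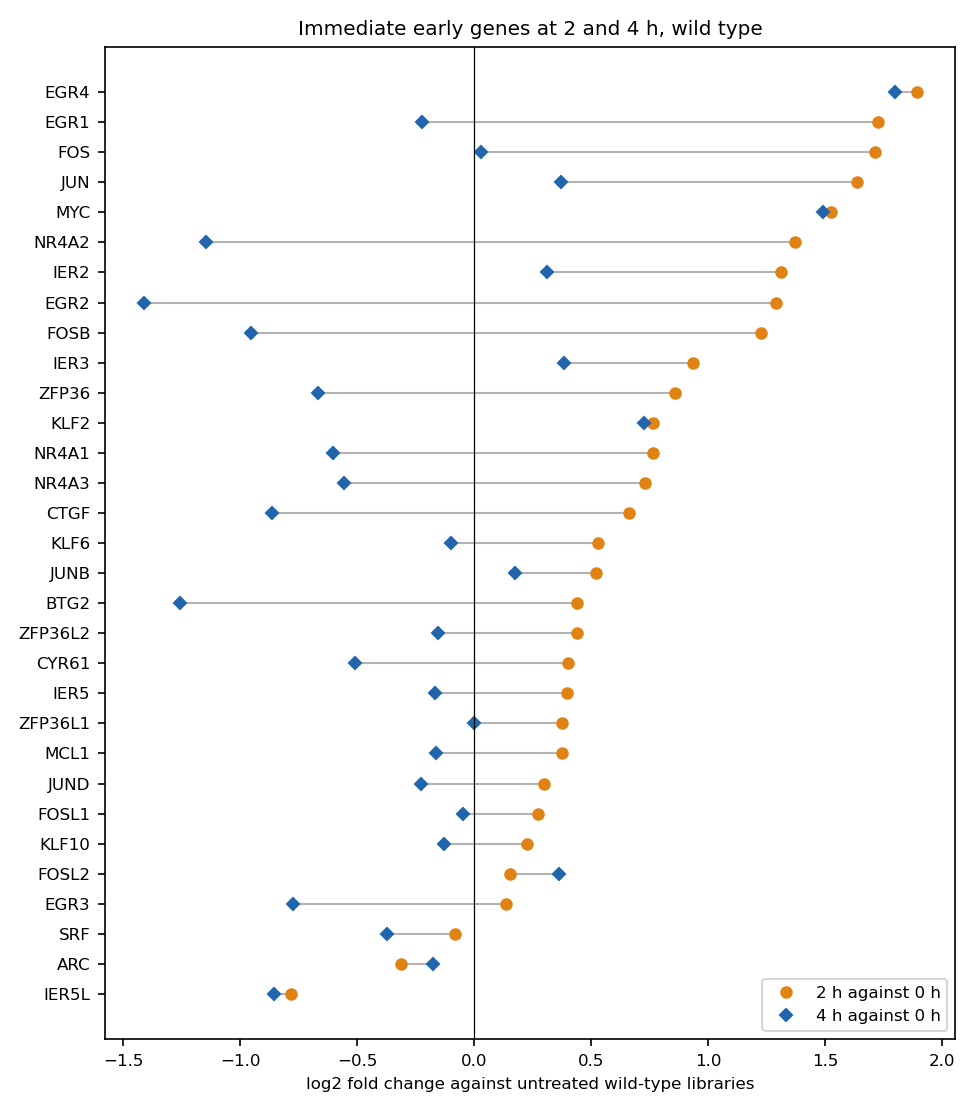
Log2 fold change against the untreated wild-type libraries (horizontal axis) at 2 h (circles) and at 4 h (diamonds) for the 31 immediate early genes tested, joined by a line per gene and ordered by the value at 2 h. EGR2, NR4A2 and BTG2 cross from above to below the untreated level, whereas MYC, EGR4 and KLF2 lie near their 2 h values.

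Genes of the NF-κB system, in which IκB proteins hold the transcription factor in the cytoplasm, moved both ways. Of 22 tested, 15 rose and 6 fell (median 0.42). Most subunits rose. RELB was at 66.8, 61.6 and 62.8 CPM at 2 h and 141, 139.5 and 138 CPM at 4 h (step 1.14, SE 0.05, adjusted p = 4.28e-22). NFKB1 was at 196, 171 and 181 CPM at 2 h and 386, 376 and 380.3 CPM at 4 h (step 1.07, SE 0.06, adjusted p = 2.52e-19). NFKB2 was at 225, 215 and 225 CPM at 2 h and 342, 324 and 322 CPM at 4 h (step 0.57, SE 0.04, adjusted p = 7.58e-17), and RELA stepped by 0.24, while REL was slightly lower (−0.18). The adaptor TRAF1 was at 92.2, 70.9 and 69.96 CPM at 2 h and 211, 201 and 213 CPM at 4 h (step 1.44, SE 0.09, adjusted p = 1e-17) and BIRC3, a ubiquitin ligase of the pathway, stepped by 1.21. Fast feedback inhibitors fell after an early rise. TNFAIP3 (A20) was at 223, 217 and 199 CPM at 2 h and 93, 105 and 124 CPM at 4 h (step −0.98, SE 0.08, adjusted p = 2.97e-13). ZC3H12A was at 96, 93.4 and 104 CPM at 2 h and 57.8, 60.2 and 66.6 CPM at 4 h (step −0.67, SE 0.06, adjusted p = 6.38e-12). NFKBIA (IκBα) was at 205, 207 and 213 CPM at 2 h and 143, 152 and 141 CPM at 4 h (step −0.52, SE 0.05, adjusted p = 1.86e-10). NFKBIE and NFKBIB, other IκB genes, rose by 0.44 and 0.61.

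Of 15 chemokines and cytokines tested, 10 rose and 2 fell, with a median step of 0.73. CCL2, a monocyte chemoattractant, was at 144, 99.1 and 103 CPM at 2 h and 298, 277 and 260.3 CPM at 4 h (step 1.29, SE 0.10, adjusted p = 4.8e-14). IL11 was at 81, 72.2 and 90.8 CPM at 2 h and 185, 180.4 and 169 CPM at 4 h (step 1.13, SE 0.08, adjusted p = 4.33e-15), after a fall at 2 h. IL32 was at 72.6, 66 and 66 CPM at 2 h and 118, 110.2 and 109 CPM at 4 h (step 0.73, SE 0.05, adjusted p = 4.14e-15). CSF1 was at 42.2, 34.3 and 33.7 CPM at 2 h and 68, 63 and 61.5 CPM at 4 h (step 0.82, SE 0.08, adjusted p = 1.12e-11). The neutrophil chemokine CXCL8 stepped by 0.97, IL23A by 1.46 and IL6 by 0.71. TNF turned back, from 8.36, 6.94 and 8.14 CPM at 2 h to 4.59, 4.19 and 4.55 CPM at 4 h (step −0.80, SE 0.16, adjusted p = 0.00011), yet stayed above the untreated level (log2 1.65). TNFSF9, the ligand 4-1BBL, was at 45.4, 43.1 and 41.5 CPM at 2 h and 13.1, 14.9 and 16 CPM at 4 h (step −1.56, SE 0.09, adjusted p = 6.15e-18), a new fall. The libraries did not overlap in any of these genes for which levels are given.

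The largest falls beyond those given above were mostly new ones. BMF, a BH3-only activator of apoptosis (chr15:40087890-40108892, minus strand), was at 8.83, 11.3 and 11.8 CPM untreated, 12, 10.7 and 8.93 CPM at 2 h and 1.53, 1.86 and 0.988 CPM at 4 h, and its step was −2.86 (SE 0.21, adjusted p = 5.53e-15). TET1, an oxidase of 5-methylcytosine (chr10:68560656-68694482, plus strand), was at 6.52, 10.6 and 8.5 CPM untreated, 7.9, 8.31 and 5.71 CPM at 2 h and 2.04, 1.4 and 1.38 CPM at 4 h (step −2.17, SE 0.25, adjusted p = 1.23e-09). NPAS4, an activity-regulated transcription factor, was at 5.88, 6.76 and 5.12 CPM at 2 h and 0.714, 1.4 and 1.88 CPM at 4 h (step −2.14, SE 0.26, adjusted p = 8.13e-09). JAKMIP3 was at 3.68, 4.09 and 2.76 CPM at 2 h and 0.918, 0.699 and 0.889 CPM at 4 h (step −2.05, SE 0.25, adjusted p = 1.13e-08). ARHGAP24 was at 6.99, 8.24 and 6.89 CPM at 2 h and 1.43, 2.45 and 1.78 CPM at 4 h (step −1.98, SE 0.22, adjusted p = 7.57e-10). None had changed at 2 h by the test, and no library at 4 h reached the 2 h range, both as the rules for choosing them required. BMP4, the bone morphogenetic protein, was at 21.6, 19.5 and 19.3 CPM untreated, 24.6, 34 and 33.7 CPM at 2 h and 5.71, 5.59 and 4.35 CPM at 4 h (step −2.58, SE 0.12, adjusted p = 2.04e-20). GAS1, a growth arrest gene, was at 5.01, 6.21 and 5.76 CPM untreated, 10.02, 9.24 and 9.06 CPM at 2 h and 1.94, 2.21 and 2.87 CPM at 4 h (step −1.996, SE 0.21, adjusted p = 1.69e-10); both had first risen. PRICKLE2, a planar polarity gene, was at 32.8, 40.2 and 37 CPM untreated, 44.2, 49.96 and 40.7 CPM at 2 h and 11.6, 12.1 and 15.8 CPM at 4 h (step −1.77, SE 0.11, adjusted p = 5.75e-17). The antisense RNA RP11-1100L3.8 (step −2.58, SE 0.44, adjusted p = 6.35e-06) overlaps exons of NR4A1 on the other strand. PVRIG (step −1.88, SE 0.36, adjusted p = 4.99e-05) overlaps STAG3, and HNRNPA1P66 (step −1.87, SE 0.40, adjusted p = 0.000208) is a pseudogene, so their reads may not be separable from those of their neighbours or parent. The library kit keeps strand, but the strand setting of the counting is unknown here, so genes with antisense partners carry this limit too (among those named, WARS with WDR25 and SLC2A12 with TBPL1).

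The BCL2 family, whose members promote or block cell death at the mitochondrion, showed no common direction, with 6 of 16 higher and 5 lower. Beside BCL2A1, the BH3-only PMAIP1 (NOXA) rose from 160.4, 155 and 169 CPM at 2 h to 214, 212 and 206 CPM at 4 h (step 0.38, SE 0.04, adjusted p = 4.99e-10). BAK1, a pore-forming member, rose from 26.3, 28 and 27.4 CPM at 2 h to 38, 35.7 and 37.3 CPM at 4 h (step 0.44, SE 0.07, adjusted p = 5.27e-07). BID, which links death receptors to the mitochondrion, rose from 9.74, 8.86 and 9.19 CPM at 2 h to 13.1, 13.2 and 13.4 CPM at 4 h (step 0.52, SE 0.11, adjusted p = 0.000101). Beside BMF, the anti-apoptotic MCL1 fell from 750.1, 783 and 767 CPM at 2 h to 519, 524 and 540.4 CPM at 4 h (step −0.54, SE 0.03, adjusted p = 6.44e-20). BCL2L1 (BCL-XL) fell from 175, 166 and 198 CPM at 2 h to 141, 143 and 147 CPM at 4 h (step −0.32, SE 0.05, adjusted p = 8.44e-07). Genes known as p53 targets went down in 13 of 17 cases and up in 3 (median −0.34). MDM2, the ubiquitin ligase of p53, was at 223, 231 and 194 CPM at 2 h and 103, 99.8 and 99.7 CPM at 4 h (step −1.10, SE 0.05, adjusted p = 2.53e-22). TP53INP1 was at 46.7, 47.9 and 40.6 CPM at 2 h and 13.1, 13.9 and 12.3 CPM at 4 h (step −1.79, SE 0.08, adjusted p = 1.19e-20). The phosphatase PPM1D was at 56.8, 58 and 52.1 CPM at 2 h and 32.8, 34.8 and 35.6 CPM at 4 h (step −0.69, SE 0.06, adjusted p = 1.29e-12). PMAIP1 and TNFRSF10B, which are on this list too, rose, as did GADD45A (0.11, SE 0.05, adjusted p = 0.048), whose call was lost when any of 8 single libraries was left out.

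Falls that had begun by 2 h and continued were modest in size, with 11 of 449 reaching 2-fold in the step. SLC2A12, a glucose transporter, was at 54, 62.8 and 64.7 CPM untreated, 54.8, 54.1 and 37.1 CPM at 2 h and 13, 13.4 and 16.6 CPM at 4 h (step −1.75, SE 0.13, adjusted p = 1.22e-14). Only the lowest of its libraries at 2 h lay below the untreated range. PKD1L2 was at 30.7, 39.1 and 40.5 CPM untreated, 29, 33 and 29.3 CPM at 2 h and 10.5, 14.1 and 13.5 CPM at 4 h (step −1.27, SE 0.12, adjusted p = 6.66e-12). ZFHX3, a large zinc finger protein, was at 181, 189 and 187 CPM untreated, 182, 171 and 155 CPM at 2 h and 78.3, 75.7 and 80.4 CPM at 4 h (step −1.11, SE 0.05, adjusted p = 1.85e-22). In PKD1L2 and ZFHX3, 1 library each at 2 h lay within the untreated range. NYNRIN was at 36.6, 39.7 and 40.1 CPM untreated, 31.4, 35 and 28.4 CPM at 2 h and 14.9, 12.8 and 16.3 CPM at 4 h (step −1.10, SE 0.09, adjusted p = 3.9e-13). LHX1, a homeobox gene, stepped by −1.18 (SE 0.24, adjusted p = 7.82e-05) and RP11-34A14.3, whose exons overlap LOXL4 on the other strand, by −1.14 (SE 0.19, adjusted p = 2.53e-06). Of 24 cholesterol genes 17 fell, 7 as continued and 8 as new falls, and 1 rose (median −0.22), a rise lost without replicate 2 at 2 h or replicate 1 at 4 h. INSIG1, the sterol sensor, was at 51.1, 51.2 and 41.8 CPM at 2 h and 18.3, 23.9 and 21.3 CPM at 4 h (step −1.18, SE 0.09, adjusted p = 1.76e-14). The sterol carrier STARD4 was at 124, 125 and 108 CPM at 2 h and 81.7, 88.8 and 88.9 CPM at 4 h (step −0.46, SE 0.05, adjusted p = 3.01e-10).

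Reversed falls were led by genes of different kinds. ELFN1, a synaptic organiser (chr7:1688119-1747954, plus strand), was at 29.9, 29.3 and 32.1 CPM untreated, 20.4, 21.3 and 24.6 CPM at 2 h and 80.2, 89.4 and 83.5 CPM at 4 h, a step of 1.92 (SE 0.06, adjusted p = 1.88e-25). LONRF2 was at 10.5, 12 and 10.3 CPM untreated, 6.99, 5.02 and 7.81 CPM at 2 h and 24.2, 25.2 and 21.5 CPM at 4 h (step 1.85, SE 0.13, adjusted p = 1.54e-15). PCDH7, a protocadherin, was at 19.4, 22.9 and 21.6 CPM untreated, 14.8, 13.8 and 17 CPM at 2 h and 53.1, 54 and 52.7 CPM at 4 h (step 1.81, SE 0.09, adjusted p = 2.9e-20). All 3 overshot the untreated level, and by 8 h they were lower again by 1.25, 0.81 and 1.23 on the log2 scale. MAP6D1 (step 1.42, SE 0.16, adjusted p = 1.01e-09), ANKRD13A (1.32, SE 0.07, adjusted p = 4.19e-20), SPOCD1 (1.25, SE 0.10, adjusted p = 3.05e-14) and the cytochrome CYP4F11 (1.23, SE 0.12, adjusted p = 1.09e-11) followed the same course; exons of C12orf76 and RP11-84A19.3 overlap ANKRD13A and SPOCD1 on the other strand.

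Some chaperone genes were among the reversed falls. Of 29 genes for endoplasmic reticulum chaperones and degradation, 21 had fallen by 2 h; in the step 13 rose, 9 of them as reversed falls, and 1 fell (median 0.09), a fall lost without replicate 2 or 3 at 2 h or replicate 1 at 4 h. HSPA5 (BiP), the main chaperone of that compartment (chr9:125234853-125241330, minus strand), was at 748, 705 and 711 CPM untreated, 545, 509 and 517 CPM at 2 h and 885, 891 and 884 CPM at 4 h, a step of 0.76 (SE 0.03, adjusted p = 1.24e-23). HYOU1 was at 137, 139 and 143 CPM at 2 h and 181, 168 and 174 CPM at 4 h (step 0.32, SE 0.03, adjusted p = 1.15e-10), and MANF stepped by 0.40 and CALR by 0.07. HSP90B1 and PDIA4 did not pass (adjusted p = 0.29 and 0.89). The regulators XBP1 and ERN1 (IRE1) continued to rise. XBP1 was at 142, 149.5 and 164 CPM at 2 h and 278, 261 and 266 CPM at 4 h (step 0.82, SE 0.04, adjusted p = 5.15e-19). ERN1 was at 30.3, 32.7 and 33.3 CPM at 2 h and 45.9, 45.8 and 43 CPM at 4 h (step 0.48, SE 0.06, adjusted p = 2.08e-08). Of 25 cytosolic heat shock and chaperonin genes, 18 had fallen by 2 h; 13 rose in the step, 9 as reversed falls, and 6 fell (median 0.08). The chaperonin subunits rose slightly. CCT5 rose from 443, 458 and 451 CPM at 2 h to 528, 519 and 532 CPM at 4 h (step 0.22, SE 0.03, adjusted p = 1.59e-09). CCT2 rose from 236, 233 and 240.4 CPM at 2 h to 268, 276 and 279 CPM at 4 h (step 0.21, SE 0.03, adjusted p = 1.29e-08). HSPA1A continued to fall, at 111, 104 and 112 CPM untreated, 67.3, 59.8 and 56.8 CPM at 2 h and 25.9, 25.6 and 28.5 CPM at 4 h (step −1.19, SE 0.09, adjusted p = 6.55e-15), as did its near-identical copy HSPA1B (step −1.10, SE 0.08, adjusted p = 1.7e-14), with which it may share reads. HSPA8, a constitutive family member, fell too, at 604, 610.1 and 605 CPM at 2 h and 431, 433 and 431 CPM at 4 h (step −0.49, SE 0.03, adjusted p = 1.38e-17). On the log2(TPM + 1) scale the rises numbered 7 among the reticulum genes and 8 among the heat shock genes.

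Ribosome biogenesis was the list with the most uniform rise. Of 33 genes 32 rose and none fell, with a median step of 0.55, and 25 were newly raised; the median change from 0 to 2 h had been −0.003. NHP2 did not pass (adjusted p = 0.37). RRP12, a small-subunit maturation factor, was at 101, 94.8 and 111 CPM at 2 h and 195, 193 and 191 CPM at 4 h (step 0.91, SE 0.04, adjusted p = 9.76e-22). The helicase DDX21 was at 402, 411 and 451 CPM at 2 h and 713, 715 and 716 CPM at 4 h (step 0.76, SE 0.03, adjusted p = 5.47e-23). WDR43 was at 111, 112 and 119 CPM at 2 h and 199, 199 and 195 CPM at 4 h (step 0.79, SE 0.04, adjusted p = 2.23e-20). UTP4 was at 87.8, 85.3 and 92 CPM at 2 h and 138, 139 and 137 CPM at 4 h (step 0.64, SE 0.04, adjusted p = 1.09e-17). Nucleolin (NCL) and fibrillarin (FBL) rose less, by 0.30 and 0.19. Of 21 subunits of RNA polymerases I and III 11 rose, led by POLR1B, at 77.7, 73 and 84.6 CPM at 2 h and 127, 127 and 132 CPM at 4 h (step 0.72, SE 0.04, adjusted p = 3.24e-17). The 1 that fell, POLR3GL (adjusted p = 0.041), lost its call without replicate 1 or 2 at 2 h, replicate 3 at 4 h or knockout replicate 3 at 4 h, and with RLE factors, no filter, only the compared groups, either TPM scale, thinning or DESeq2. Host genes of small nucleolar RNAs rose in 11 of 16 cases and fell in 1 (median 0.39), mostly as continued rises (9). SNHG15 was at 49.6, 46.8 and 51.1 CPM at 2 h and 78.5, 74.9 and 75.2 CPM at 4 h (step 0.63, SE 0.05, adjusted p = 3.76e-13). GAS5 was at 139, 138 and 156 CPM at 2 h and 184, 193 and 192 CPM at 4 h (step 0.39, SE 0.05, adjusted p = 4.85e-09). Nonsense-mediated decay factors rose in 10 of 15 cases and fell in 1 (median 0.20), 8 of them newly. EIF4A3 was at 82, 86 and 80.8 CPM at 2 h and 114, 121 and 114 CPM at 4 h (step 0.48, SE 0.04, adjusted p = 2.4e-12). Among 15 mitochondrial chaperones and proteases 11 rose and 1 fell (median 0.26), the fall being lost without replicate 1 at 2 h or at 4 h. HSPA9 was at 241, 248 and 268 CPM at 2 h and 382, 373 and 372 CPM at 4 h (step 0.57, SE 0.03, adjusted p = 4.54e-20). LONP1 was at 62.3, 61.7 and 64.6 CPM at 2 h and 99.3, 94.2 and 98.1 CPM at 4 h (step 0.63, SE 0.04, adjusted p = 1.1e-15).

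Mitotic genes fell in 27 of 28 cases and rose in none (median −0.27), 12 after an early rise and 11 newly. CENPF, a kinetochore protein, was at 314, 354 and 315 CPM at 2 h and 199, 209 and 222 CPM at 4 h (step −0.64, SE 0.05, adjusted p = 2.41e-14). The checkpoint kinase BUB1 was at 121, 124 and 115 CPM at 2 h and 79.3, 89.9 and 91.6 CPM at 4 h (step −0.47, SE 0.05, adjusted p = 9.56e-11). KIF20A was at 84.3, 87.8 and 72.2 CPM at 2 h and 49.97, 51.6 and 52.7 CPM at 4 h (step −0.66, SE 0.07, adjusted p = 3.23e-10). BUB1B was at 53.1, 60.9 and 53.9 CPM at 2 h and 31.7, 37.7 and 36.6 CPM at 4 h (step −0.67, SE 0.07, adjusted p = 4.83e-10). AURKB did not pass (adjusted p = 0.86). DNA replication genes moved less, 11 of 43 lower and 3 higher (median −0.03), with PCNA at 127, 140.5 and 132 CPM at 2 h and 96.9, 100.3 and 104 CPM at 4 h (step −0.41, SE 0.05, adjusted p = 2.54e-09). The 11 lower replication genes became 6 without replicate 2 at 2 h, 5 without replicate 1 at 4 h and 6 without replicate 2 at 4 h, and the 3 higher became 1 without replicate 1 at 2 h and 5 without replicate 1 at 4 h. Of 9 genes for D-type cyclins and inhibitors of cyclin-dependent kinases 6 fell and 1 rose (2 without replicate 3 at 2 h). CDKN1A (p21) was at 181, 163 and 155 CPM at 2 h and 133, 129 and 129.8 CPM at 4 h (step −0.34, SE 0.04, adjusted p = 2.36e-08). CDKN2C was at 47.2, 48.7 and 46.9 CPM at 2 h and 23.7, 22.6 and 25.5 CPM at 4 h (step −0.99, SE 0.08, adjusted p = 5.37e-14). CDKN1C was at 15.4, 16.1 and 13.1 CPM at 2 h and 6.93, 9.66 and 6.33 CPM at 4 h (step −0.97, SE 0.14, adjusted p = 2.05e-07). The riser was cyclin D2 (CCND2), which was at 192, 189 and 197 CPM at 2 h and 274, 254 and 273 CPM at 4 h (step 0.47, SE 0.03, adjusted p = 2.62e-17). Fewer cells in mitosis and less of each message per cell cannot be told apart in these bulk libraries.

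Other lists were mixed or small in size. YAP and TEAD targets fell in 9 of 14 cases and rose in 2 (median −0.27), with F3, tissue factor, at 65.2, 58.2 and 53.9 CPM at 2 h and 33.3, 35 and 31.5 CPM at 4 h (step −0.82, SE 0.07, adjusted p = 1.39e-13). Of 16 ID, SMAD and BMP genes 6 rose and 6 fell; NOG, a BMP antagonist, was at 195, 191 and 241 CPM at 2 h and 99.6, 102 and 111 CPM at 4 h (step −1.01, SE 0.06, adjusted p = 1.93e-18). ID1 was at 345, 358 and 392 CPM at 2 h and 197, 219.6 and 210.1 CPM at 4 h (step −0.81, SE 0.05, adjusted p = 7.79e-17). SMAD3 was at 238, 221 and 232 CPM at 2 h and 301, 289 and 271 CPM at 4 h (step 0.32, SE 0.04, adjusted p = 2.57e-08). Of 13 KLF factors 3 rose and 5 fell, and the rise of KLF15 (1.67, SE 0.60, adjusted p = 0.027) rested on replicate 2 at 4 h, without which it was 0.35, and its call was also lost without any single replicate at 2 h. Of 14 clock genes 6 rose and 6 fell and on the log2(TPM + 1) scale 2 and 3 did. Of 10 Notch, Wnt and Hedgehog feedback genes 3 rose and 5 fell. HES1 was at 54, 63.4 and 71 CPM at 2 h and 35.7, 33.7 and 33.8 CPM at 4 h (step −0.88, SE 0.08, adjusted p = 4.83e-12). Of 16 NRF2 and ferritin genes 6 rose and 2 fell (1 without replicate 1 or 2 at 2 h, 2 or 3 at 4 h or knockout replicate 3 at 4 h); TXNRD1 was at 412, 432 and 448 CPM at 2 h and 684, 652 and 627 CPM at 4 h (step 0.60, SE 0.04, adjusted p = 4.72e-17). Of 28 matrix genes 6 rose and 6 fell, with TNC at 134, 126 and 124 CPM at 2 h and 201, 205 and 208 CPM at 4 h (step 0.68, SE 0.04, adjusted p = 5.87e-19). Of 6 TXNIP and arrestin-domain genes 3 rose and 1 fell. Of 29 lysosomal genes 8 fell and 1 rose (0 without replicate 1 or 3 at 2 h or any replicate at 4 h), and of 17 interferon genes 3 rose and 2 fell, IFIT1 with a step of −1.80 (SE 0.28, adjusted p = 9e-07). The 8 lower lysosomal genes became 4 without replicate 1 at 2 h, 5 without replicate 1 at 4 h, 4 without replicate 3 at 4 h and 5 without knockout replicate 3 at 4 h. Of 13 messages of the mitochondrial genome 9 fell and none rose, all by little (median −0.07), MT-ND5 with a step of −0.13 (SE 0.03, adjusted p = 9.16e-05).

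**Figure D4:**
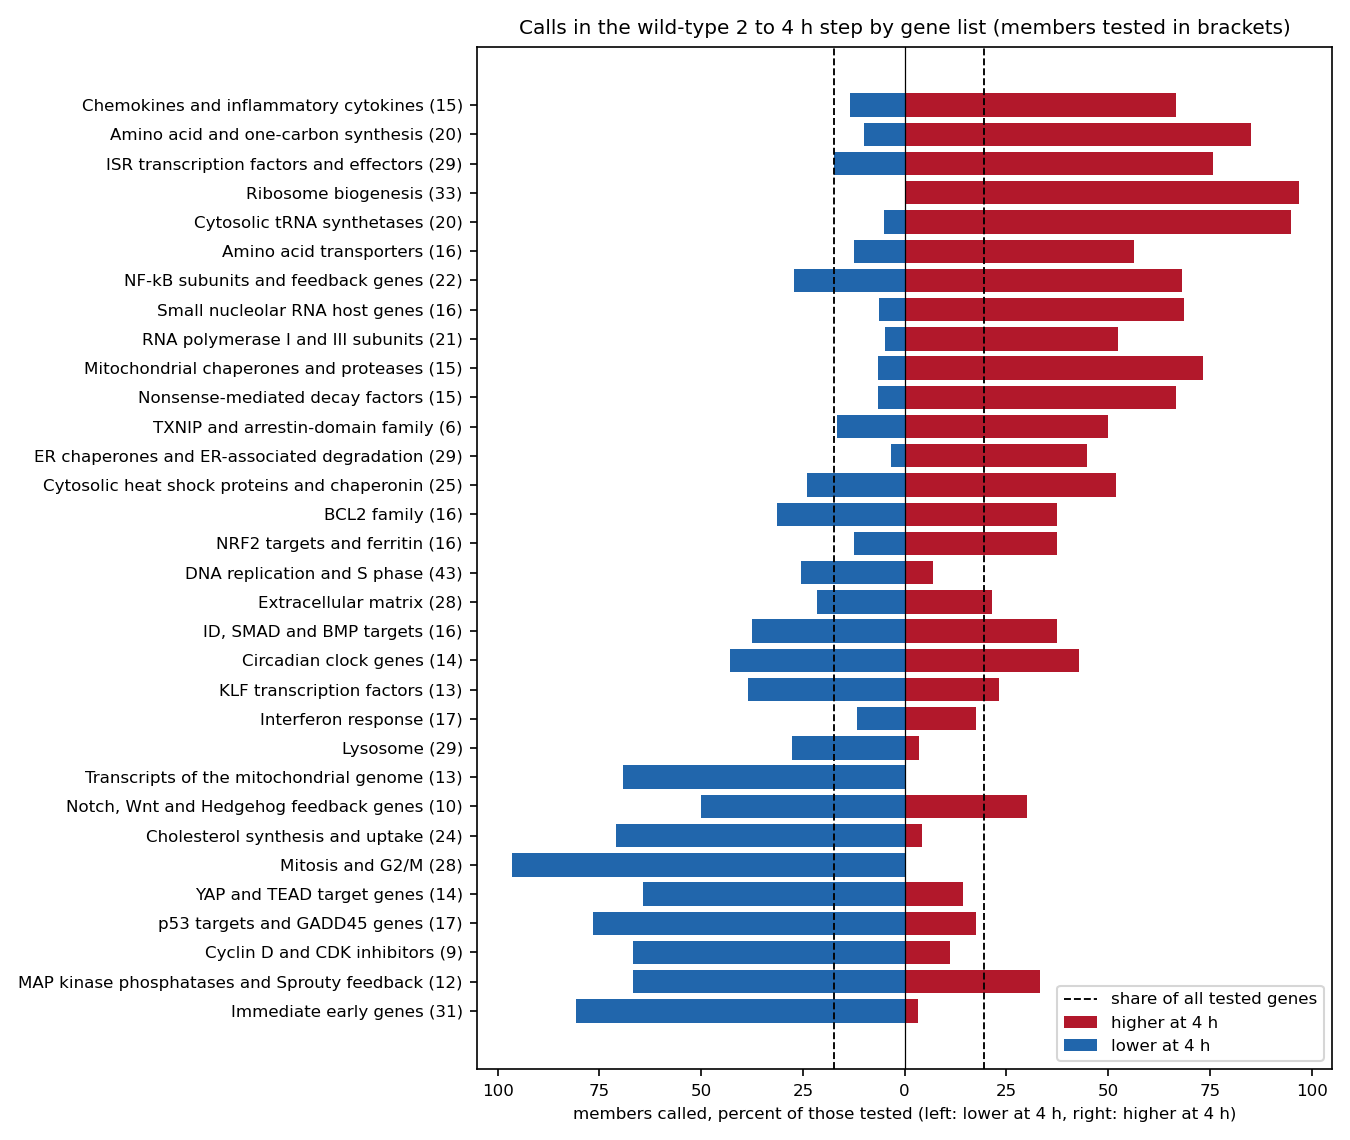
Share of the tested members of each of 32 gene lists that were higher (right) or lower (left) at 4 h than at 2 h, in percent, ordered by median step, with dashed lines at the shares over all tested genes, 19.4% and 17.3%. Ribosome biogenesis (32 of 33 higher) and mitosis (27 of 28 lower) reach furthest past the lines.

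The same interval in ATF4 knockout cells moved many of the same genes. There 3346 genes rose (17.6%) and 3049 fell (16%), and 2480 genes rose in both, 67.1% of the wild-type rises and 74.1% of the knockout ones, while 2066 fell in both, 62.9% and 67.8%. In opposite directions were 48 genes that rose in wild type and fell in the knockout, and 25 the other way. The test of the difference, knockout step minus wild-type step, called 355 genes negative (1.86%) and 232 positive (1.22%), 39.5% of the calls being positive. That split moved to 30.2% positive with RLE size factors, to 24.7% with DESeq2 and to 26.5% without knockout replicate 3 at 4 h, where 154 genes were positive. Of the 355 negative genes 262 had risen in wild type, 125 as continued and 98 as new rises. Of the 232 positive genes 115 had fallen in wild type. The wild-type step is itself subtracted in this difference. A chance deviation of the wild-type libraries would therefore push risers towards negative and fallers towards positive differences. These counts and those by course below are descriptions and test nothing.

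By course, the difference was called negative for 125 of 678 continued rises and 98 of 2143 new ones. Shares of the courses called in the same direction in the knockout were 71.49% of the newly raised, 68.73% of the continued and 72.79% of the reversed rises, and 61.36% of the newly lowered, 72.38% of the continued and 67.19% of the reversed falls. In the stress list 21 of 29 differences were negative and in the lists for amino acid synthesis, transporters and tRNA synthetases 14 of 20, 7 of 16 and 11 of 20. SESN2 was at 28.1, 27.8 and 31.2 CPM at 2 h and 14.6, 15.7 and 13.4 CPM at 4 h in the knockout, falling where wild type rose, a difference of −2.11 (SE 0.12, adjusted p = 4.18e-16). DDIT4 was at 51.1, 50.8 and 50.6 CPM at 2 h and 23, 26 and 24.3 CPM at 4 h in the knockout (difference −1.80, SE 0.11, adjusted p = 5.81e-16). SLC7A11 was at 3.01, 3.1 and 2.71 CPM at 2 h and 1.98, 2.03 and 3.12 CPM at 4 h in the knockout (difference −1.71, SE 0.23, adjusted p = 9.75e-07). TRIB3 was at 23.3, 20.6 and 23.2 CPM at 2 h and 30.8, 34.4 and 31.3 CPM at 4 h in the knockout (difference −1.56, SE 0.10, adjusted p = 4.93e-15). HSPA5, at 453, 435 and 442 CPM at 2 h and 477, 461 and 449 CPM at 4 h in the knockout, had a smaller step than in wild type (difference −0.70, SE 0.04, adjusted p = 7.98e-16). XBP1 differed in the same direction (difference −1.08, SE 0.07, adjusted p = 3.55e-14). SLFN5, a Schlafen family gene named by the size of its difference, rose in wild type from 16.4, 18.2 and 17.6 CPM at 2 h to 47.4, 48.8 and 48.9 CPM at 4 h. It was at 19.3, 22.9 and 22.9 CPM at 2 h and 14.5, 16.6 and 16.6 CPM at 4 h in the knockout (difference −1.94, SE 0.13, adjusted p = 7.58e-15). ATF4's own step did not pass the test of a difference (−0.12, adjusted p = 0.15), though it did without wild-type replicate 3 at 2 h (−0.17, adjusted p = 0.016) and with DESeq2 (−0.14, adjusted p = 0.045).

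FGF21 had no count in any knockout library at 2 or 4 h, which allows up to 0.0895 and 0.0968 CPM over the 3 libraries. STC2 had 8 counts over the 3 knockout libraries at 2 h and 0 at 4 h. With the 0 set to the floor of 3 counts over the group, this was 2.46-fold lower. That value takes the 8 counts as exact and is not a lower bound. Wild-type steps for which no difference could be called included that of BCL2A1, at 0.334, 0.138 and 0.502 CPM at 2 h and 3.31, 2.54 and 2.45 CPM at 4 h in the knockout (difference 0.27, SE 0.55, adjusted p = 0.89). The same held for IGFN1 (difference −0.88, SE 0.52, adjusted p = 0.46) and BMF (difference −0.30, SE 0.34, adjusted p = 0.76). These errors are large beside the differences, so a smaller difference was not detectable in these low-count genes. For ribosome biogenesis 30 of 33 genes rose in the knockout and 2 differences were negative. For mitosis 26 of 28 fell and none differed. For NF-κB 15 of 22 rose and 2 differed. For the immediate early genes 28 of 31 fell, with 3 negative and 2 positive differences.

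Some properties that the rule did not use varied between the courses. Of the genes found in GENCODE 29 (16670 of 19043), protein-coding genes made up 92.26% of the newly raised, 93.54% of the continued rises and 96.32% of the reversed falls but 84.41% of the newly lowered, against 75.19% of all tested genes. Non-coding RNA genes were 11.17% of the newly lowered and 4.677% of the newly raised, against 16.78% of all tested genes. Median levels at 2 h were 24.16 CPM for newly lowered and 80.58 CPM for reversed falls, the lowest and the highest of the 6 courses, and 14.79 CPM over all tested genes. In promoter windows, the element TGATGNAA stood in 5.087% of 747 windows of continued rises and 1.991% of 2310 windows of newly raised genes, against 2.159% of the 16859 windows of all tested genes and 3.62% of all 35116 windows in the table. The NF-κB word GGANTTTCC stood in 3.347% of the windows of continued rises and 1.631% of all tested windows. TGACGTCA, the cAMP response element, stood in 4.429% of the windows of reversed rises, 4.419% of those of reversed falls and 2.58% of all tested. The CArG box bound by SRF stood in 2.098%, 2.128% and 1.139%, or 18 of 858, 13 of 611 and 192 of 16859 windows. In the same order the AP-1 word TGANTCA stood in 5.711%, 8.02% and 5.7%, and the E-box CACGTG in 9.207%, 10.47% and 9.004%. TGACGTCA also stood in 3.074% of the windows of newly raised genes. A gene can have several windows, and these shares were not tested. Overlaps with other words were not removed, and a match is not a bound site.

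Against the untreated libraries the median of the newly raised genes was 0.36 at 4 h, 0.50 at 8 h and 0.47 at 24 h, and that of the continued rises 0.63, 0.79 and 0.69. The newly lowered stood at −0.45, −0.64 and −0.59 and the continued falls at −0.48, −0.74 and −0.90. The medians of the reversed rises and reversed falls stayed within 0.1 of the untreated level, but their members spread to both sides. Of 691 reversed rises, 256 were called higher and 271 lower than untreated at 24 h. Of 509 reversed falls, 204 were higher and 216 lower. At 24 h 1592 of 2143 newly raised genes and 575 of 678 continued rises were still called higher than untreated. Called lower were 1283 of 1739 newly lowered genes and 415 of 449 continued falls. Over all 19043 tested genes, 6292 were called higher and 6171 lower than untreated at 24 h. All of these comparisons share the untreated libraries. TRIB3 rose by a further 1.03 from 4 to 8 h, while EGR2 fell by 3.13 and NR4A2 fell by 2.72 on the log2 scale.

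**Figure D5:**
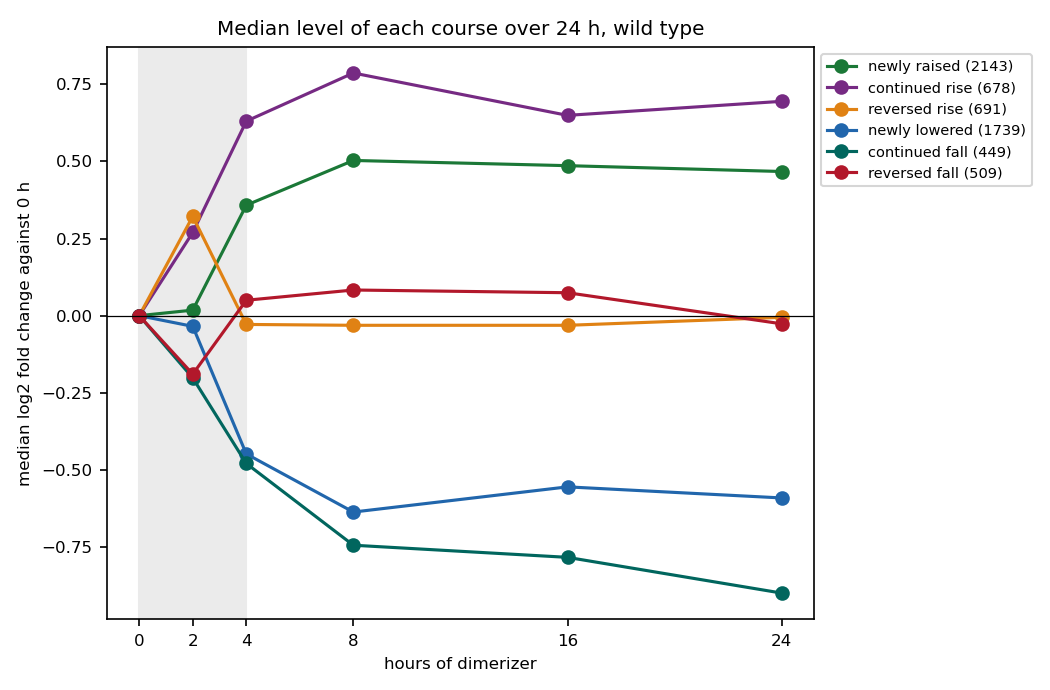
Median log2 fold change against the untreated wild-type libraries (vertical axis) over hours of dimerizer (horizontal axis) for the genes of each course, with the number of genes in the key and the interval that defines the courses shaded. The curves separate within the shaded interval by construction, and the medians of both reversed courses stay near 0 from 4 to 24 h.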

How the data were processed

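RNA was sequenced from wells of Dmr-PERK U2OS cells, with strand-keeping NEBNext Ultra II Directional libraries on a NovaSeq, per the labels' protocols. The authors deposited estimated counts and TPM per gene, and the submitters' processing notes name Salmon 0.9.1, FastQC 0.11.5 and GRCh38. The strand setting of the counting is unknown here. The deposited expected counts need not be whole, so they were rounded. The deposited TPM values served only as an alternative; each library's TPM column was closest to its own counts for 33 of 36 libraries, the exceptions being the untreated knockout ones, which were left out of that fit.

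The tests used edgeR 4.0.16 (R 4.3.3): genes kept by filterByExpr, TMM factors, a quasi-likelihood fit of 12 group means over 36 libraries, so that all groups share one estimate of the spread, and Benjamini-Hochberg adjustment at 0.05. The fit was tested on simulated data. Named genes were 14 stress genes, the 12 with the largest step each way and the 8 of each course (mean of at least 1 CPM, no overlap between times), up to 4 members of each of 32 lists in the main direction and 3 against it, and the 6 largest differences each way between knockout and wild type. List members given with a step alone, and the 3 early genes said to be so, were chosen after their values were seen. The comparisons, members and lists were chosen with earlier results of these data known. A few genes named by these rules are not reported here. Promoter windows came from RefSeq, positions from GENCODE 29 by versioned identifier. Alternatives were RLE factors, no filter, a replicate block, only the groups compared, log2(TPM + 1) and log2(TPM + 0.1) in limma 3.58.1, DESeq2 1.42.0, each library left out, a 2-fold minimum, an unadjusted p of at least 0.05 at 2 h for no early change and, chosen after seeing the data, thinning of all libraries to 8608541 counts.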

Additional observations from a re-analysis of the deposited data

Results flagged for a closer look

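For 54 of the named genes the step from 2 to 4 h differed between genotypes by the test of the difference itself (edgeR's quasi-likelihood test, adjusted p under 0.05, 3 libraries per group). STC2 passed this test too but is not among the 54, since it had 0 counts in the knockout at 4 h. Each value is the knockout step minus the wild-type step on the log2 scale, so a negative value means a smaller rise or a larger fall in the knockout. Most had been named for their step in wild type, which is subtracted in the difference, and the rest for the size of the difference. The share of calls over all genes was 1.86% negative and 1.22% positive.

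Most of the differences were negative. Among regulators and effectors of the stress response they were −2.11 for SESN2, −1.80 for DDIT4, −1.56 for TRIB3, −1.0 for VLDLR, −0.86 for GDF15, −0.85 for DDIT3, −0.72 for ATF3, −0.45 for TNFRSF10B, −0.44 for PPP1R15A and −0.43 for XPOT. For enzymes and carriers of amino acids they were −1.71 for SLC7A11, −1.71 for CTH, −1.56 for PSAT1, −1.11 for GPT2, −0.82 for ASNS, −0.62 for SLC1A5 and −0.49 for MTHFD2. For tRNA synthetases they were −0.90 for WARS, −0.82 for SARS, −0.56 for GARS and −0.34 for IARS. Chaperones, proteases and their regulators gave −1.08 for XBP1, −0.70 for HSPA5, −0.58 for LONP1, −0.37 for HSPA9 and −0.25 for HYOU1.

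Smaller negative differences came from other lists, −0.73 for ERRFI1, −0.63 for CCND2, −0.35 for NFE2L2, −0.34 for IL32, −0.30 for TNC, −0.28 for CDKN1A, −0.28 for PMAIP1, −0.26 for RELB, −0.23 for NFKB2, −0.23 for RRP12, −0.23 for RFC1 and −0.21 for SRXN1. Genes named for the size of the difference were ANGPT4 at −2.28, CLUHP4 at −2.15, SLFN5 at −1.94 and TSLP at −1.87, and ROCK1P1, a pseudogene whose reads may be split with ROCK1, stood at −1.58.

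Positive differences were fewer: 3.02 for RP11-438J1.1, 1.56 for TMEM265, 1.39 for SPDYE5, 1.22 for CTD-2318O12.1, 1.14 for HIST1H4H, 1.11 for USP3-AS1, 0.65 for BMP4, 0.44 for ARRDC3, 0.36 for PTCH1, 0.34 for SMAD3 and 0.21 for KLF10.

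The value for RP11-438J1.1 rests on near-empty knockout libraries at 2 h (3.34, 0 and 0 CPM), and it became 9.49 without replicate 1 of that group and 2.22 without replicate 2. The value for ANGPT4 became −2.93 without knockout replicate 2 at 4 h.

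Several of these calls rested on single libraries. RELB missed the threshold without wild-type replicate 2 at 2 h or 1 at 4 h or knockout replicate 2 at 2 h, RRP12 without wild-type replicate 2 or knockout replicate 3 at 2 h or knockout replicate 2 at 4 h, and TSLP without wild-type replicate 2 at 2 h or 1 at 4 h. RP11-438J1.1 missed it without wild-type replicate 2 or knockout replicate 2 or 3 at 2 h, SPDYE5 without wild-type replicate 2 at 4 h, knockout replicate 2 or 3 at 2 h or knockout replicate 2 at 4 h, and TMEM265 without wild-type replicate 1 at 2 h or 3 at 4 h or knockout replicate 3 at 2 h or 2 at 4 h. CLUHP4 missed it without wild-type replicate 2 at 2 h, 2 or 3 at 4 h, or knockout replicate 2 or 3 at 2 h. BMP4, CTD-2318O12.1, HIST1H4H, KLF10, PTCH1, SRXN1 and USP3-AS1 missed it on leaving out any of 7 or more single libraries.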

How the results depend on the processing

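No gene called in the step was called in the opposite direction under any alternative. Thinned to equal depth, 3345 genes were higher and 2904 lower, so depth moved the counts by less than 1.5 times. With log2(TPM + 1) and log2(TPM + 0.1), 2170 and 2134 genes were higher, and 2105 were lower with the latter. Changes of at least 2-fold numbered 116 higher and 103 lower with log2(TPM + 1), a scale that shrinks low genes, and 196 lower with DESeq2. Positive differences between knockout and wild-type steps numbered 138 with only the compared groups in the fit, 133 with DESeq2, and 53 and 47 on the TPM scales, and negative ones 135 and 127 on the TPM scales. The courses on the TPM scales, pseudocount 1 then 0.1, held 347 and 350 continued rises, 322 and 301 reversed rises, 92 and 89 continued falls and 121 and 117 reversed falls, and 1425 newly raised genes with pseudocount 0.1. Without the filter there were 325 reversed falls. With a 2-fold minimum the courses held 186, 58, 51, 205, 11 and 23 genes in the order of the report. The cause was not tested for these changes.

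Leaving out single libraries gave 3231 to 3914 higher and 2706 to 3296 lower genes, 259 to 336 and 274 to 345 at 2-fold, 154 to 254 positive and 283 to 428 negative differences, 1883 to 2270 newly raised, 513 to 695 continued and 472 to 699 reversed rises, 1430 to 1800 newly lowered, and 298 to 453 continued and 305 to 571 reversed falls. Whether the replicate numbers pair the wells is not settled by the data. Same-numbered wild-type wells at 2 and 4 h correlated at 0.0148, 0.103 and −0.0564, and not every library correlated best with its own number. In the knockout the same-numbered pairs at 2 and 4 h stood at 0.111, 0.137 and 0.0949, each above all pairs of different number, a hint of pairing from the data that the labels do not give. With the replicate block 3716 genes were higher and 3288 lower.

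Of 228 steps of named genes, 37 lost their call with log2(TPM + 0.1) and 35 with log2(TPM + 1), among those in the text BID, CHAC1, DDIT3, ERN1, GADD45A, GLUL, KLF15, POLR3GL, QARS, SLC1A1 and SPRED3 on both scales and LHX1 on the first. None lost its call with the replicate block, and DESeq2 gave no adjusted p for 2. Of 59 differences of steps, 22 lost their call with log2(TPM + 1) and 21 with log2(TPM + 0.1), among them ATF3, XPOT, GARS and IARS, and 2 with the replicate block (BMP4 and USP3-AS1). DESeq2 gave no adjusted p for 13. The difference of BCL2A1, called under no setting, was −0.55 and −0.15 on these scales and ranged from −0.21 to 0.74 without single libraries, the lowest without knockout replicate 2 at 2 h. The list medians of the BCL2 family and the ID, SMAD and BMP genes change sign on the TPM scales, that of the clock genes without replicate 2 at 4 h and that of the NRF2 genes without replicate 1 at 4 h. Mitotic genes lower at 4 h numbered 19 to 27 over all settings.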
